A study of Mus musculus with 5 samples.

Results

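The 10 genes described here encode enzymes that build triglyceride in the liver: Gpam, Agpat6, Agpat2, Agpat3, Lpin1, Lpin2, Mogat1, Mogat2, Dgat1 and Dgat2. They were matched by gene symbol, the set having been picked by function with earlier results of these data known, and all 10 had a row among the 11048 named genes of the table. The mice were db/db, which lack a working long leptin receptor and become obese and diabetic. Their liver RNA was sequenced in 2 libraries from mice given SR4 at 10 mg/kg body weight by oral gavage and in 3 libraries from mice given vehicle. Treatment lasted 5 weeks in both groups and followed 1 week of acclimatization. The db/db genotype, stated in the series' design text, is shared by both groups, and no lean mice were analysed here. SR4 is presented in the series title as a proton transporter that fatty acids activate, and the comparison asks how it affects the steatotic liver. Age and sex are not given by the labels, and neither is whether libraries were made from different mice. The p-values therefore reflect the spread of these 5 libraries, which may be technical.

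Hepatocytes make triglyceride mainly by the glycerol 3-phosphate pathway, in which a glycerol 3-phosphate acyltransferase adds the first fatty acid, a lysophosphatidate acyltransferase adds the next, a lipin removes the phosphate to give diacylglycerol, and a diacylglycerol acyltransferase adds the last fatty acid. A parallel route starts from monoacylglycerol, which monoacylglycerol acyltransferases convert to diacylglycerol. The monoacylglycerol route is best known from intestinal fat absorption, and Mogat1 is known to be raised in steatotic mouse liver. Most of these steps have more than 1 enzyme, and the isoforms differ in organelle, tissue and regulation.

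In SR4 livers, transcripts of the first enzyme, Gpam, were 3.75-fold lower by the fitted change, while those of its endoplasmic reticulum counterpart Agpat6 were 2.02-fold higher. Neither passed the test. Mogat1 fell 2.18-fold and was the 1 member of 10 that passed, at a limma adjusted p under 0.05. In the same test 1.31% of 10542 genes passed, 0.873% lower and 0.436% higher. Dgat2, the most abundant member per kb of annotated exon, differed by less than the spread between libraries. The median log2 fold change over the 10 members was -0.20, against 0.00 over all genes tested, with 6 members below 0 and 4 above. The SR4 libraries lay below all vehicle libraries for 2 members, Gpam and Mogat1, and above them for 2, Agpat6 and Dgat1. These 4 of 10 compare with 41.7% of all genes without overlap, 20.2% lower and 21.5% higher, so the members' share was near the background. The same 4 of 10 members had an unadjusted limma p under 0.05, against 21.4% of all genes, 10.9% lower and 10.4% higher.

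The sequences before the annotated start are shown for Gpam, Mogat1 and Lpin1, the 3 members with the lowest fitted change, as the regions where control of their transcription is usually looked for. They are RefSeq sequences on build GRCm38.p6, written 5′ to 3′ on the gene's own strand and ending just before the start or the first annotated exon. Capitals mark matches, on either strand, to 5 short motifs: the E-box CACGTG, the CCAAT box, the TATA box TATAAA, the nuclear receptor motif AGGTCA and the glucocorticoid receptor motif AGAACA.
Gpam upstream start (chr19:55127239-55127488, minus strand): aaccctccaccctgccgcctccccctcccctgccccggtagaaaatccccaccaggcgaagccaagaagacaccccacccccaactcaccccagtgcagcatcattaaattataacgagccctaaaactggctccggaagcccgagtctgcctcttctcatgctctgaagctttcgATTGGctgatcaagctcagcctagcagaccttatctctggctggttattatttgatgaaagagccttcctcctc
Gpam downstream start (chr19:55099478-55099727, minus strand): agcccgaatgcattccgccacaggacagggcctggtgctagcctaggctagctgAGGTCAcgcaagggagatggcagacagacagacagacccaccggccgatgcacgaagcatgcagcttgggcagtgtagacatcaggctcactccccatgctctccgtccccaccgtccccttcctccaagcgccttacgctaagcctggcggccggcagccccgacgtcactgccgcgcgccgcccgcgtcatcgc
Mogat1 (chr1:78510810-78510990, plus strand): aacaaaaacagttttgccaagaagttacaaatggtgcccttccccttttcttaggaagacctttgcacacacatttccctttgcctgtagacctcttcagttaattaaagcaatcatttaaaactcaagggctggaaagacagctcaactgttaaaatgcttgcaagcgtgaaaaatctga
Lpin1 (chr12:16610967-16611216, minus strand): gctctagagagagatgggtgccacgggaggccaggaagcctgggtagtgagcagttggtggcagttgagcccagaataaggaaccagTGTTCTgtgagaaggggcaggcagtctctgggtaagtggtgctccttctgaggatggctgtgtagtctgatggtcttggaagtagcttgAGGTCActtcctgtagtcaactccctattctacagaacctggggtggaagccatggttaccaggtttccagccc
The upstream Gpam start had 1 CCAAT match, read as ATTGG on this strand, beginning 74 bases before it, and the downstream start had 1 AGGTCA match 196 bases before it. Lpin1 had 1 AGAACA match, read as TGTTCT on this strand, at 163 bases and 1 AGGTCA match at 74 bases. The Mogat1 window had no match to these motifs. Among 32851 RefSeq windows of 250 bases before a start, 33.8% held CCAAT, 14.0% AGGTCA and 16.1% AGAACA, so each match is common and only describes the sequence. CACGTG occurred in 6.02% and TATAAA in 12.4% of the windows, and in none of the 4 shown.

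Values below are normalised counts: the deposited gene read counts, which the authors had already brought to a total of 25494249 per library, divided by a TMM scaling factor. The recovered reads behind them numbered 28113108 and 26407523 in the SR4 libraries, against 22878383 to 26768105 in the vehicle libraries. Each member had from 61 to 23250 recovered reads in each library, as estimated by inverting that adjustment. Each fold change is a difference of log2(value + 1), with limma's standard error (SE), and adjusted p-values are limma's over all 10542 genes.

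**Figure D1:**
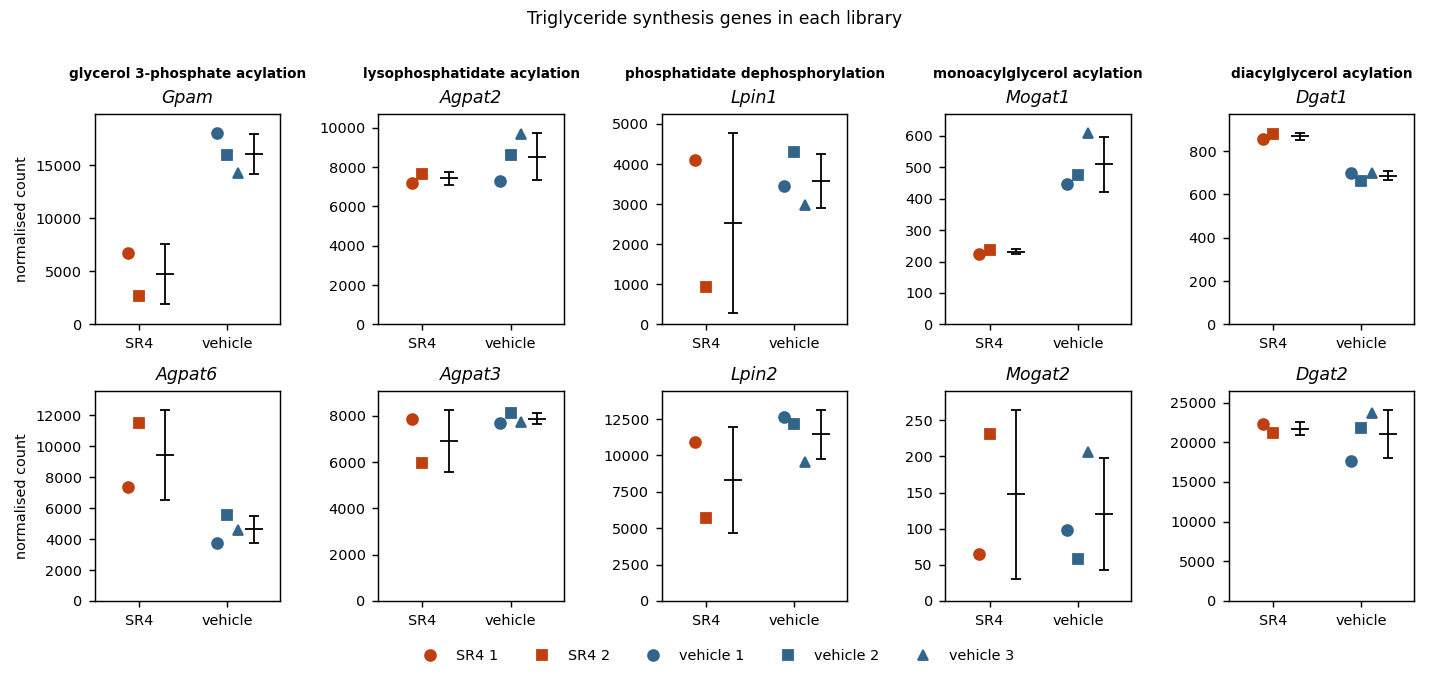
Normalised counts (y axis, linear from 0) of the 10 members in each library, with SR4 left of vehicle and 1 column of panels per step of the pathway. Points are libraries and the black marks are mean ± SD (n = 2 for SR4, n = 3 for vehicle). Gpam and Mogat1 lie lower, and Agpat6 and Dgat1 higher, in both SR4 libraries than in any vehicle library.

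Gpam encodes the glycerol 3-phosphate acyltransferase of the mitochondrial outer membrane, an enzyme known to follow insulin and SREBP activity (chromosome 19, 55067268 to 55127238, GRCm38, protein-coding). It had 6722 and 2707 normalised counts in SR4 libraries 1 and 2, against 18043, 15935 and 14292 in vehicle libraries 1, 2 and 3. The groups were far apart, but SR4 library 1 had 2.48 times the count of SR4 library 2. The means were 4715 ± 2839 in SR4 livers (SD, n = 2) and 16090 ± 1880 in vehicle livers (SD, n = 3), with a log2 fold change of -1.91 (SE 0.37, 95% interval -2.81 to -1.01). Gpam had the lowest fitted change of the members and ranked 111th from the lowest among 10542 genes, yet did not pass (limma adjusted p = 0.0681). Without SR4 library 1 the log2 fold change was -2.56, and without SR4 library 2 it was -1.25. Each of these fits held 1 SR4 library and so no SR4 spread.

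Agpat6, now named Gpat4, encodes a glycerol 3-phosphate acyltransferase of the endoplasmic reticulum (chromosome 8, 23171265 to 23208346, protein-coding). It had 7363 and 11500 normalised counts in SR4 libraries 1 and 2, against 3740, 5536 and 4587 in vehicle libraries 1, 2 and 3. Both SR4 libraries lay above every vehicle library, and here SR4 library 2 was the higher. The log2 fold change was 1.01 (SE 0.24, 95% interval 0.43 to 1.59) and did not pass (limma adjusted p = 0.0936). It ranged from 0.69 without SR4 library 2 to 1.34 without SR4 library 1.

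Set side by side per kb of annotated exon, Agpat6 stood far above Gpam in SR4 library 2 but only narrowly above it in SR4 library 1. In each vehicle library Gpam was the higher. Gpam made up 44.0% and 17.5% of the summed level per kb of 4 glycerol 3-phosphate acyltransferase genes in SR4 libraries 1 and 2, against 78.3%, 70.8% and 71.1% in the vehicle libraries. The share of Agpat6 was 48.0% and 74.4% in SR4 livers, against 16.2%, 24.5% and 22.8% in vehicle livers. Agpat9, an endoplasmic reticulum isoform now named Gpat3, made up 7.15% and 7.18% in SR4 livers, against 3.65% to 5.47% in vehicle livers. Its own level overlapped, with 163.9 and 166.3 normalised counts per kb in SR4 livers, against 165.3, 123.4 and 164.9 in vehicle livers. Gpat2, known mainly from mouse testis, was under 1% in each library. The summed level of the 4 genes was 2294 and 2315 normalised counts per kb in SR4 livers, against 3456, 3376 and 3015 in vehicle livers. The SR4 libraries thus had nearly the same total with a different make-up. The ratio of Agpat6 to Gpam per kb, which does not depend on the scaling of libraries, was 1.09 and 4.24 in SR4 livers, against 0.207, 0.347 and 0.320 in vehicle livers, 7.57-fold higher by the means of the log2 ratios. In an exact two-sided permutation test of 2 against 3 libraries the smallest possible p is 0.1, which this ratio reached (exact p = 0.1, 0.5 adjusted over 5 ratios), as did the summed level (exact p = 0.1, 0.2 adjusted over 6 sums). With 2 against 3 libraries this permutation test cannot go below 0.05. The log2 difference of this ratio was 2.92, and it was 3.90 without SR4 library 1 and 1.94 without SR4 library 2.

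**Figure D2:**
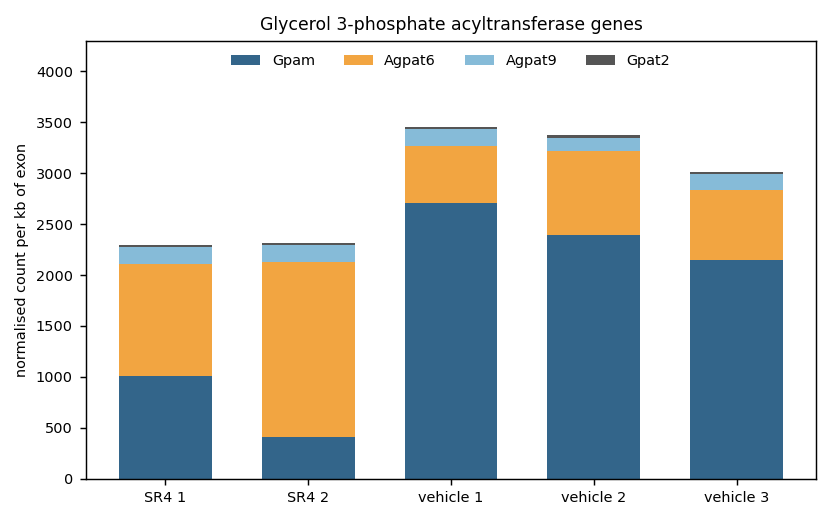
Stacked bars of normalised counts per kb of annotated exon (y axis, linear from 0) for 4 glycerol 3-phosphate acyltransferase genes in each library. Gpam fills most of each vehicle bar, 70.8% to 78.3%, and 44.0% and 17.5% of the SR4 bars, which are lower in total.

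Agpat2 and Agpat3 add the fatty acid of the next step. Loss of AGPAT2 causes congenital lipodystrophy in humans, and AGPAT3 has been placed at the endoplasmic reticulum and Golgi. Agpat2 (chromosome 2, 26593057 to 26604417) had 7193 and 7664 normalised counts in SR4 livers, against 7304, 8604 and 9699 in vehicle livers. Agpat3 (chromosome 10, 78269178 to 78352489) had 7870 and 5964 in SR4 livers, against 7712, 8144 and 7753 in vehicle livers. The groups overlapped for both genes, although the values as deposited, before TMM scaling, did not overlap for either and were lower in SR4 livers. The log2 fold changes were -0.19 (SE 0.16) for Agpat2 and -0.20 (SE 0.16) for Agpat3, with limma adjusted p = 0.522 and 0.499. Their 95% intervals, -0.57 to 0.18 and -0.57 to 0.17, leave room for a decrease of up to 0.57 on the log2 scale. The ratio of Agpat2 to Agpat3 per kb was 3.34 and 4.70 in SR4 livers, against 3.46, 3.86 and 4.58 in vehicle livers, with overlap.

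The lipins convert phosphatidate to diacylglycerol. Lpin1, the gene mutated in the fatty liver dystrophy mouse, is known to rise in liver with fasting and glucocorticoids and also acts as a transcriptional coactivator, and lipin 2 is the abundant lipin protein of mouse liver. Lpin1 (chromosome 12, 16535669 to 16610966) had 4113 and 932.6 normalised counts in SR4 libraries 1 and 2, against 3449, 4310 and 2978 in vehicle libraries 1, 2 and 3. SR4 library 1 lay within the vehicle range and SR4 library 2 far below it. Between the SR4 libraries Lpin1 differed by 2.14 on the log2 scale, more than 99.4% of all genes tested, against a median of 0.205. Its log2 fold change of -0.85 (SE 0.62) did not pass (limma adjusted p = 0.476) and rested on SR4 library 2. It was -1.92 without SR4 library 1 and 0.22 without SR4 library 2. Each of those fits held 1 SR4 library and so no SR4 spread.

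Lpin2 (chromosome 17, 71182560 to 71249817) had 10916 and 5730 normalised counts in SR4 livers, against 12671, 12161 and 9530 in vehicle livers. It too was within the vehicle range in SR4 library 1 and below it in SR4 library 2. The log2 fold change was -0.52 (SE 0.29; limma adjusted p = 0.342), -0.99 without SR4 library 1 and -0.06 without SR4 library 2. Lpin1 and Lpin2 together had 1318 and 564.9 normalised counts per kb in SR4 livers, against 1393, 1440 and 1087 in vehicle livers.

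Mogat1, a monoacylglycerol acyltransferase, was the member whose SR4 libraries were both low and alike (chromosome 1, 78510991 to 78538173, protein-coding). It had 225.5 and 237.2 normalised counts in SR4 livers, against 446.4, 474.5 and 609.2 in vehicle livers. These came from 235 recovered reads in each SR4 library and from 458 to 557 in the vehicle libraries. The means were 231.4 ± 8.27 in SR4 livers (SD, n = 2) and 510.0 ± 87.0 in vehicle livers (SD, n = 3). Mogat1 fell by 1.12 on the log2 scale (SE 0.17, 95% interval -1.52 to -0.73; limma adjusted p = 0.0389). Its log2 fold change lay between -1.25 and -0.99 over 15 alternatives, but the call was lost without any 1 of SR4 library 1, SR4 library 2, vehicle library 2 or vehicle library 3 (limma adjusted p = 0.0657, 0.146, 0.107 and 0.0734) and with limma-voom on recovered reads (adjusted p = 0.0610), within 0.0256 to 0.146 over the alternatives. The Mogat1 exons share 200 bases with BC035947, a protein-coding gene on the opposite strand, and the library kit does not keep the strand, so reads there cannot be told apart.

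Mogat2, the monoacylglycerol acyltransferase best known from the intestine, lies beside Dgat2 (chromosome 7, 99219084 to 99238619). It had 64.97 and 230.3 normalised counts in SR4 livers, against 97.51, 57.41 and 206.3 in vehicle livers. The libraries of each group differed by more than 3-fold and the groups overlapped. The log2 fold change of 0.22 (SE 0.70, 95% interval -1.50 to 1.94; limma adjusted p = 0.888) changed sign with single libraries left out, from -0.68 without SR4 library 2 to 1.13 without SR4 library 1. Mogat2 differed between the SR4 libraries by 1.81 on the log2 scale, more than 99.0% of all genes. The summed level of both monoacylglycerol acyltransferases was 180.2 and 277.7 normalised counts per kb in SR4 livers, against 339.7, 335.8 and 503.4 in vehicle livers, without overlap (exact two-sided permutation p = 0.1, the smallest possible, and 0.2 adjusted over 6 sums). Of 6 enterocyte markers, Fabp2 and Apoa4, which the liver also makes, were measured. Fabp2 had 2742 and 2181 normalised counts in SR4 livers, against 3604 to 4941 in vehicle livers, and Apoa4 had 42161 and 12755 in SR4 livers, against 111461 to 423938 in vehicle livers (limma adjusted p = 0.0856 and 0.0982). Vil1, Cdx2, Lct and Alpi were not analysed here. Their part in the Mogat2 values was not tested.

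Dgat1 and Dgat2 make the final bond of triglyceride and are unrelated in sequence. DGAT1 is known mainly for re-esterifying fatty acids taken up from outside, and DGAT2 for using newly made ones. Dgat1 (chromosome 15, 76502015 to 76511953) had 858.1 and 879.2 normalised counts in SR4 livers, against 699.8, 662.2 and 698.0 in vehicle livers. The groups did not overlap and varied little, with an SD of 1.72% of the mean in SR4 livers and 3.09% in vehicle livers. The difference was small, with a log2 fold change of 0.34 (SE 0.10, 95% interval 0.10 to 0.58), and did not pass (limma adjusted p = 0.133). It lay between 0.22 and 0.36 over 15 alternatives.

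Dgat2 (chromosome 7, 99153658 to 99182719) had 22316 and 21117 normalised counts in SR4 livers, against 17666, 21753 and 23669 in vehicle livers. Both SR4 libraries lay inside the vehicle range. The log2 fold change of 0.06 (SE 0.18, 95% interval -0.37 to 0.48; limma adjusted p = 0.886) was -0.07 with libraries scaled to equal totals only. The ratio of Dgat1 to Dgat2 per kb was 0.0388 and 0.0420 in SR4 livers, against 0.0400, 0.0307 and 0.0298 in vehicle livers, with overlap.

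**Figure D3:**
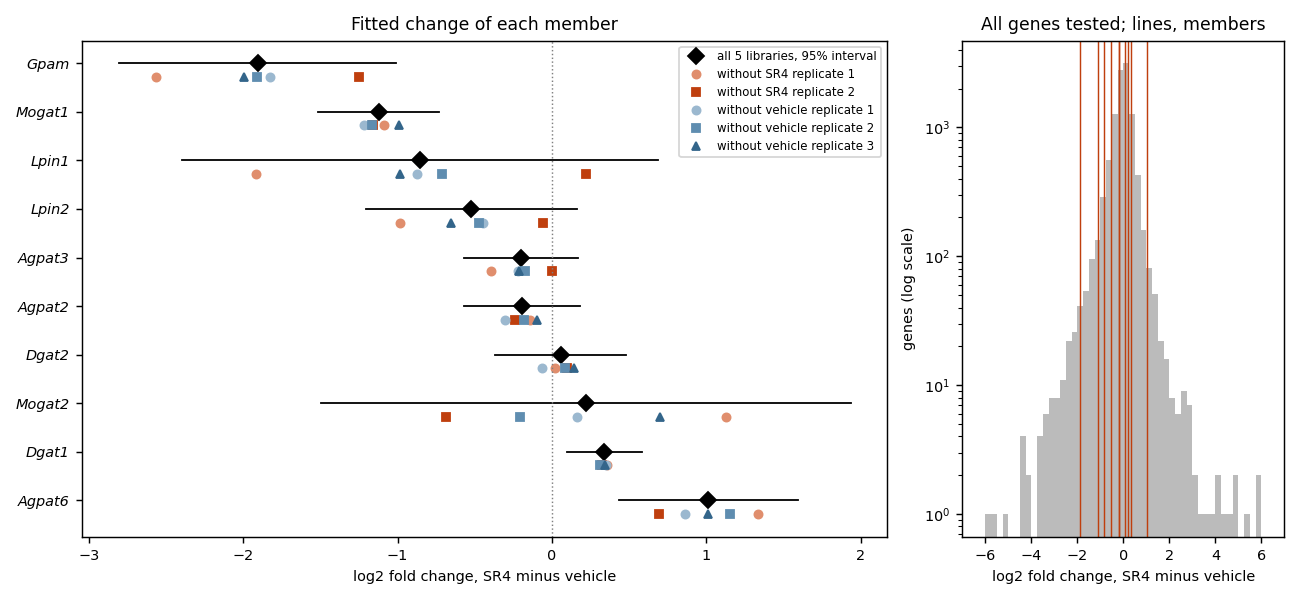
Left, log2 fold change (x axis, SR4 minus vehicle) of each member with all 5 libraries (diamond, line for the 95% interval) and with each library left out (coloured points below it). Right, histogram of log2 fold changes of all 10542 genes tested (y axis, log scale) with the members as vertical lines; Lpin1, Mogat2, Dgat2 and, narrowly, Agpat3 cross 0 as single libraries are left out, while Gpam, Mogat1, Agpat6 and Dgat1 stay on 1 side.

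Per kb of annotated exon, the order of the members in SR4 livers was Dgat2, Agpat2, Agpat6, Agpat3, Gpam, Lpin2, Dgat1, Lpin1, Mogat1 and Mogat2. Levels ran from 7044 ± 275 down to 80.5 ± 63.7 normalised counts per kb (SD, n = 2). In vehicle livers the order was Dgat2, Agpat2, Gpam, Agpat3, Lpin2, Agpat6, Lpin1, Mogat1, Dgat1 and Mogat2. Levels there ran from 6821 ± 995 to 65.6 ± 42.0 (SD, n = 3). Neighbours whose libraries overlapped were Agpat3 with Gpam, Gpam with Lpin2, Dgat1 with Lpin1 and Lpin1 with Mogat1 in SR4 livers, and Agpat3 with Lpin2, Lpin2 with Agpat6 and Lpin1 with Mogat1 in vehicle livers. By the means, Agpat6 stood above Gpam in SR4 livers (1411 ± 438 against 708 ± 426 normalised counts per kb). It stood below Gpam in vehicle livers (692 ± 135 against 2414 ± 282). In SR4 library 1 the levels were close, 1102 for Agpat6 against 1009 for Gpam.

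The SR4 libraries were unlike each other for part of the pathway. Gpam, Lpin1, Lpin2 and Mogat2 differed between them by 0.93 to 2.14 on the log2 scale, more than 94.3% to 99.4% of all genes, whereas Mogat1, Dgat1, Dgat2 and Agpat2 differed by 0.04 to 0.09, below the median of 0.205. Gpam, Lpin1 and Lpin2 were lower in SR4 library 2, and Agpat6 and Mogat2 higher.

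By distance over the 5 libraries, measured as the mean absolute difference of log2 values centred on the vehicle mean, the genes most like Agpat6 were Arl3, Adssl1 and Cbs (0.053, 0.0601 and 0.0654). Cbs, the cystathionine beta-synthase, had 20077 and 28386 normalised counts in SR4 livers, against 9348, 15178 and 11404 in vehicle livers. The genes most like Gpam were Aqp8, Fam198a and Plcxd1 (0.144, 0.166 and 0.169). Aqp8, a water channel, had 3623 and 1543 in SR4 livers, against 9600, 6885 and 8809 in vehicle livers. None of these 6 genes passed the limma test.

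Around the enzymes, 57 genes in 7 lists cover the supply and use of glycerol 3-phosphate and the activation of fatty acids. They also cover other acyltransferases and phosphatases, competing uses of diacylglycerol, droplet budding and regulators. Of 49 measured, 0 passed with limma, against 1.31% of all genes. With limma-voom on recovered reads 0 passed too, against 44 of 10541 genes. Both counts are near the background. At an unadjusted limma p under 0.05 there were 18 (36.7%), against 21.4% of all genes. The SR4 libraries lay below the vehicle libraries for 16 of the 49 (32.7%, against 20.2% of all genes) and above them for 10 (20.4%, against 21.5% of all genes).

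In the list labelled glycerol 3-phosphate supply, 4 of 5 genes had an unadjusted limma p under 0.05, against 21.4% of all genes. The median log2 fold change over the 5 genes was -0.34. Gpd2, the mitochondrial glycerol 3-phosphate dehydrogenase, uses glycerol 3-phosphate rather than supplying it. Its counts were 888.0 and 434.0 in SR4 livers, against 2072, 1724 and 1432 in vehicle livers (limma adjusted p = 0.0828). Gpd1l, a relative of the cytosolic dehydrogenase, had 1520 and 1802 in SR4 livers, against 969.8, 1133 and 868.7 in vehicle livers (limma adjusted p = 0.0644). Gpd2 and Gpd1l thus lay on opposite sides of vehicle. Over the list, 3 genes lay below vehicle and 1 above without overlap, against 20.2% and 21.5% of all genes. Gpd1 and Gyk, named here after their values were seen, also lay below. Gpd1 had 17870 and 10304 in SR4 livers, against 20012 to 23970 in vehicle livers (limma adjusted p = 0.167). Gyk had 1943 and 2062 in SR4 livers, against 2395 to 2802 in vehicle livers (limma adjusted p = 0.166).

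In fatty acid activation, the median over 7 genes was 0.06. Acsl5, an acyl-CoA synthetase, had 14448 and 12772 normalised counts in SR4 livers, against 22810, 19716 and 19023 in vehicle livers (limma adjusted p = 0.110). Slc27a4, a fatty acid transport protein with synthetase activity, had 1421 and 1366 in SR4 livers, against 1932, 2099 and 1917 in vehicle livers (limma adjusted p = 0.0670). Slc27a5, a very long chain acyl-CoA synthetase of liver named here after its values were seen, lay the other way, with 35216 and 33902 in SR4 livers, against 14204, 23830 and 25449 in vehicle livers (log2 fold change 0.75; limma adjusted p = 0.176). The list thus had 2 of 7 genes above and 2 below vehicle without overlap, against 21.5% and 20.2% of all genes, near the background. Among 4 droplet budding genes the median was -0.49, 0 passed, and 3 lay below vehicle in both SR4 libraries, against 20.2% of all genes. Fitm1 and Fitm2, which help droplets form at the endoplasmic reticulum, had 2364 and 2147, and 669.8 and 483.5, in SR4 livers, against 2922 to 4284 and 813.7 to 975.3 in vehicle livers (limma adjusted p = 0.127 and 0.107).

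Among 8 genes that use diacylglycerol in other ways the median was -0.28. Without overlap, 4 lay below vehicle and 2 above, against 20.2% and 21.5% of all genes. An unadjusted limma p under 0.05 was found for 3, against 21.4% of all genes. The diacylglycerol kinases Dgka and Dgkd, which turn it back into phosphatidate, lay on opposite sides: Dgka had 189.7 and 295.7 in SR4 livers, against 128.6 to 147.6 in vehicle livers, and Dgkd 464.6 and 442.1 in SR4 livers, against 579.9 to 668.6 in vehicle livers (limma adjusted p = 0.134 and 0.105). The 9 other acyltransferases had a median of -0.11 and the 6 other phosphatases and lipin regulators one of -0.19. In the first, Lpgat1 had 4476 and 4736 in SR4 livers, against 5191 to 6028 in vehicle livers, and Lclat1 1468 and 1551 in SR4 livers, against 1172 to 1512 in vehicle livers (limma adjusted p = 0.233 and 0.402). In the second, Lpin3 had 191.1 and 119.1 in SR4 livers, against 185.8 to 236.2 in vehicle livers, and the lipin phosphatase Ctdnep1 742.9 and 820.7 in SR4 livers, against 658.9 to 738.6 in vehicle livers (limma adjusted p = 0.304 and 0.494).

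The 10 regulators went both ways, with a median of 0.11. Pparg, the nuclear receptor known to raise Mogat1 in steatotic mouse liver, had 751.5 and 680.3 normalised counts in SR4 livers, against 1132, 995.2 and 962.8 in vehicle livers (log2 fold change -0.52, SE 0.12; limma adjusted p = 0.0830). Nr1h3, the liver X receptor alpha, had 3020 and 3334 in SR4 livers, against 2194, 2670 and 2499 in vehicle livers (limma adjusted p = 0.164). The groups did not overlap for either, and neither passed. Over the list, 4 genes lay above vehicle and 3 below without overlap, against 21.5% and 20.2% of all genes. An unadjusted limma p under 0.05 was found for 5 of the 10, against 21.4% of all genes. Srebf1, an SREBP gene named here after its values were seen, overlapped. It had 21848 and 10861 in SR4 livers, against 9841 to 13207 in vehicle livers (log2 fold change 0.37; limma adjusted p = 0.531).

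**Figure D4:**
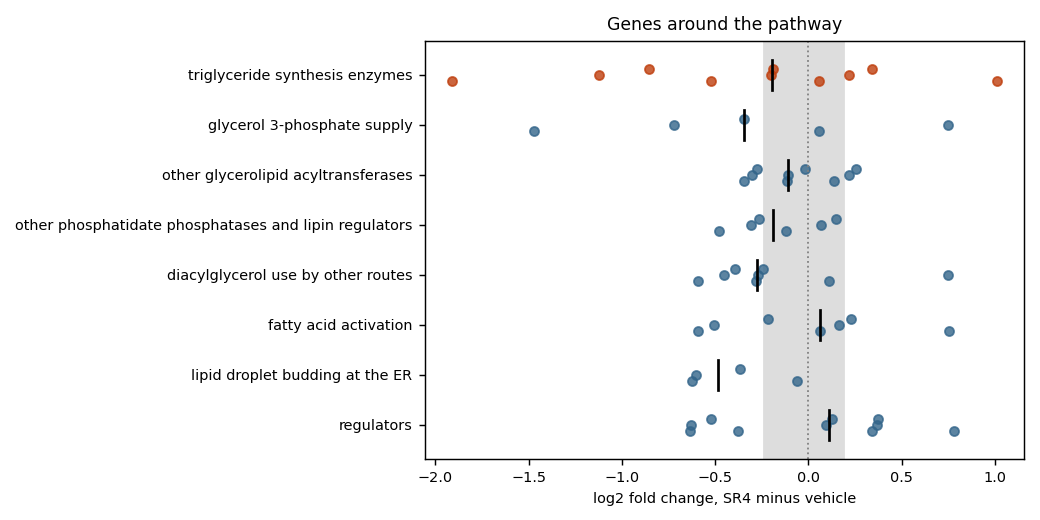
Log2 fold changes (x axis, SR4 minus vehicle) of the 10 members (top row) and of 49 genes in 7 lists around the pathway, 1 point per gene, with the median of each row as a black bar. The grey band spans the 25th to 75th percentile of all genes tested, -0.24 to 0.19, and the members' points spread from -1.91 to 1.01.

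Markers checked the tissue. The 5 hepatocyte markers summed to 2609941 and 2015042 normalised counts in SR4 livers, against 1935540 to 2532841 in vehicle livers, most of it Alb. None of the 5 passed. Hnf4a and Serpina1a lay above vehicle without overlap, against 21.5% of all genes. Alb, Apoa1 and Ttr overlapped, Apoa1 with 133629 and 29571 in SR4 livers, against 76714 to 103803 in vehicle livers. Markers of stellate cells (7 genes, median log2 fold change -1.01) and of Kupffer and myeloid cells (6 genes, median -0.69) had 0 genes passing. At an unadjusted limma p under 0.05 there were 3 of 7 and 2 of 6, against 21.4% of all genes. In each of these lists 3 genes lay below vehicle without overlap, against 20.2% of all genes. The sums of the lists were 7572 and 5694, and 3263 and 2746, in SR4 livers, against 7194 to 12206 and 3480 to 4995 in vehicle livers. The 5 endothelial markers had a median of -0.05, with 0 at an unadjusted limma p under 0.05. Of 6 adipocyte markers 2 were measured, Fabp4 and Cfd, with sums of 505.3 and 294.6 in SR4 livers, against 392.5 to 594.6 in vehicle livers. Of 3 erythroid genes measured, Hbb-bs fell, with 1204 and 1029 normalised counts in SR4 livers, against 2263 to 2818 in vehicle livers (limma adjusted p = 0.0337). Hba-a1 and Alas2 did not pass, with log2 fold changes of -0.76 and 0.23 (limma adjusted p = 0.136 and 0.540). In whole liver, fewer cells of a type and less RNA per cell cannot be told apart. The part of these cells in the members' values was not tested.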

How the data were processed

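Gene expression was measured by RNA sequencing of db/db mouse liver in 2 SR4 and 3 vehicle libraries, grouped by the treatment label. Per the labels' protocols, RNA was taken up with the RNeasy Mini kit and 500 ng entered TruSeq RNA V2 libraries. TopHat2 2.1.1, Partek and build GRCm38 (mm10) are listed in the submitters' processing notes. No counter or annotation is stated in the sources used. The deposited signal values are read counts that the authors had adjusted to 1 library size: each column's sum was within 0.00074% of 25494249, and the values carry decimals. The adjustment was inverted with a fitted dispersion of 0.0767, which gave reads that were whole within 0.02 reads for 85.3% of 37767 values from 1 to 1000.

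Because the values were not counts, limma was run on log2(value + 1) after TMM scaling, with a mean trend and robust shrinkage, keeping genes that reached 10 in 2 or more libraries, and was tested on simulated data. P-values were adjusted over all genes by Benjamini-Hochberg (threshold 0.05). In 17 rows, with 0.177% of the total, a date replaced the symbol; they were left out. Exon lengths and coordinates come from GENCODE M21 (GRCm38). Each gene's length is the union of all its annotated exons, which can exceed the length of any transcript. The members and lists were chosen with earlier results of these data known. Beside the members, the genes named were those of each list that passed and the 2 others with the smallest p, and the 3 nearest in pattern to the members with the largest fitted rise and fall. Some further genes were named after their values were seen. Alternatives covered scaling, filter, pseudocount, shrinkage, replicate number, voom and each library left out. Software was R 4.3.3, limma 3.58.1, Python 3.11.15, scipy 1.17.1 and matplotlib 3.10.9.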

Additional observations from a re-analysis of the deposited data

How the results depend on the processing

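The number of members that passed, 1 in the analysis reported, was 3 with the replicate number as a block, 0 with limma-voom on recovered reads, and from 0 to 2 with 1 library left out. The number of all genes that passed, 138, was 84 with no filter on low values, 474 with the block, 44 with limma-voom, and from 5 to 191 with 1 library left out. With the block, Gpam (log2 fold change -1.99, adjusted p = 0.0407) and Agpat6 (1.02, adjusted p = 0.0330) passed beside Mogat1; over all alternatives their adjusted p ran from 0.00820 to 0.163 and from 0.0330 to 0.311. Of the 49 genes around the pathway, 1 passed with the block, 1 with equal totals and 1 without SR4 replicate 1. The labels do not say that equal numbers mark paired libraries. Deviations of same-numbered libraries correlated at 0.174 and 0.114 in the 2 pairs there are. With 2 SR4 libraries the deviations mirror each other, so the swapped pairs are bound to give -0.174 and -0.114. These correlations therefore cannot show whether the numbers mark pairs. Vehicle library 3 has no SR4 library of its number and adds nothing to the blocked contrast. The blocked fit has few libraries left to estimate the spread, so its p-values lean on limma's shrinkage across genes. Signs of the log2 fold change turned with 1 library left out, over ranges of -0.398 to 0.00046 for Agpat3 and -1.92 to 0.22 for Lpin1 (both turned without SR4 replicate 2), -0.68 to 1.13 for Mogat2 (without SR4 replicate 2, and -0.21 without vehicle replicate 2) and -0.0677 to 0.142 for Dgat2 (without vehicle replicate 1). With equal totals Dgat2 was -0.0653. The log2 difference of the Agpat2 to Agpat3 ratio, 0.008, ran from -0.24 to 0.254 (-0.0852 and -0.00635 without vehicle replicates 1 and 2), and that of Lpin1 to Lpin2, -0.33, from -0.936 to 0.28; the cause was not tested in any of these. With an SR4 library left out, the lone SR4 library is assumed to vary like the vehicle group. Scaling to equal totals moved the median of all genes to -0.13. The planned edgeR and DESeq2 tests on recovered reads were not run, since too few recovered values were whole. Each member had at least 61 recovered reads in each library, and having 2 SR4 libraries limits the precision.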
